A study of Mus musculus with 4 samples.

Results

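The spots described here were 350 of the 11064 Visium spots of 4 mouse brain sections, chosen for high counts of Cyp26b1, Rspo2, Bmp3, Nr2f2 and Kcng1. A spot is a small disc of tissue that can hold several cells of different types, or parts of them. A spot was eligible when it held at least 500 UMIs (unique molecular identifiers, each counting 1 captured RNA molecule) and at least 5 UMIs of Slc17a7, the vesicular glutamate transporter of cortical and hippocampal excitatory neurons, and 5875 spots were. The 5 genes' UMIs per 10000 UMIs of the spot gave a score, and the 350 highest scores over all sections were taken. The label proposed for the set was piriform cortex and cortical amygdala. Other piriform cortex genes mostly did not stand out from the other eligible spots, though most were higher than in upper neocortex spots. No list of cortical amygdala genes was compared. The name was thus not borne out, and the set is called the Cyp26b1-Nr2f2 spots here.

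Each pairing of age with gavage was 1 library, made from female C57BL/6 mice of an aged rodent colony. Young mice were 3 to 4 months old and aged mice 18 to 20 months old, and both ages received either water as vehicle or ethanol at 3 g/kg, in 10 exposures over 18 days. Tissue was taken 18 hours after the last gavage from the left hemisphere with the meninges removed, and coronal sections of 10 µm between bregma -2 and -2.2 were used. The labels do not say how many animals a library held, so the libraries have no stated replicate and differences between them carry counting error only. Where 4 values are given, they stand for the young mice first, vehicle and then ethanol, followed by the aged mice in the same way. The libraries held 1570, 1577, 1407 and 1321 eligible spots.

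CYP26B1 is a cytochrome P450 that breaks down retinoic acid, a vitamin A derivative that acts through the nuclear receptors RAR and RXR. R-spondin 2, encoded by Rspo2, amplifies Wnt signals through LGR receptors, BMP3 is an atypical member of the bone morphogenetic proteins, NR2F2 (COUP-TFII) is an orphan nuclear receptor of ventral and caudal forebrain, and KCNG1 is a silent potassium channel subunit that changes the behaviour of Kv2 channels. Piriform cortex is the largest primary olfactory cortex, and the cortical and basolateral amygdala lie next to it in the ventral forebrain.

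The windows below are shown because Cyp26b1 was a rule gene and Rxrg, which encodes the retinoid X receptor gamma, was higher in the spots than in every set they were compared with. Each is the 250 bases before an annotated gene start in RefSeq on build GRCm38.p6, 5′ to 3′ on the gene's strand. The Cyp26b1 window is chr6:84593811-84594060 on the minus strand, and part of it lies inside the gene, whose span is given below. The Rxrg window is chr1:167618015-167618264 on the plus strand, before the downstream of its annotated starts and inside the gene, which spans chr1:167598362-167639623.
Cyp26b1: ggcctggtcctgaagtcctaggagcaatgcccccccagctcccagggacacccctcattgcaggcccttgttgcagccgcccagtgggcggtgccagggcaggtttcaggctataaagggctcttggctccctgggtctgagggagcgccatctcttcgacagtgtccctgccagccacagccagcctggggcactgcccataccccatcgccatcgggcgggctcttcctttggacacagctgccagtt
Rxrg: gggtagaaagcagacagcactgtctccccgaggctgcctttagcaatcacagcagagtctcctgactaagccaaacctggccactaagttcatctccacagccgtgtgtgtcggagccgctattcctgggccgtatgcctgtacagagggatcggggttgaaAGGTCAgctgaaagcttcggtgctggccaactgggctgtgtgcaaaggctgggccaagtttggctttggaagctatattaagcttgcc
The capitals mark AGGTCA, the core hexamer that many nuclear receptors bind, searched on both strands. It starts 88 bases before the Rxrg start, and 14% of the 32851 windows of 250 bases in the table hold it. It was in neither the Cyp26b1 window nor the window before the upstream Rxrg start (chr1:167598112-167598361), and the windows of Nr2f2, Cyp26a1 and Rarb lacked it too. Exact direct repeats of it spaced by 1, 2 or 5 bases, held by 0.0335%, 0.00913% and 0.00913% of windows, were in none of these. Repeats of variant hexamers were not searched, so these windows may still hold a receptor element of such spacing. A match describes letters only. Cyp26b1 itself lies at chr6:84571414-84593908, Nr2f2 at chr7:70351946-70366746, Kcng1 at chr2:168260117-168281533, Bmp3 at chr5:98854415-98884053 and Rspo2 at chr15:43020788-43171594.

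The Cyp26b1-Nr2f2 spots were uneven over the libraries. The rule took 114, 39, 107 and 90 spots, which were 7.26% (exact Clopper-Pearson 95% interval 6.03 to 8.66), 2.47% (1.76 to 3.37), 7.60% (6.27 to 9.12) and 6.81% (5.51 to 8.31) of the eligible spots. The young ethanol library gave the fewest, and its interval did not overlap the others. The intervals cover counting error only, and the plane of each section cannot be told apart from the library's group. The median depth of the chosen spots was 30191, 19203, 24627 and 23199.5 UMIs, against 23077, 23400, 21467.5 and 22211 in the other eligible spots. Summed, the chosen spots held 3343207, 794605, 2587464 and 2171966 UMIs, so that 3 UMIs of a gene stood for 0.897, 3.78, 1.16 and 1.38 CPM (UMIs scaled to the same fixed total in every sum, by the usual definition of CPM). Levels below are CPM of such sums. In all libraries, members with the same barcode as a member of another library numbered at most 2 per pair of libraries.

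Scores ran from 3.10 to 9.65 UMIs per 10000 over the 350 spots, with a median of 4.26, and tailed off without a gap. The 10 spots just inside the threshold scored 3.10 to 3.15 and the 10 just outside scored 3.05 to 3.09. Ranks 351 to 700 had a median of 2.53 and ranks 701 to 1400 a median of 1.57, so that the set is the upper end of a range and has no natural edge.

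**Figure D1:**
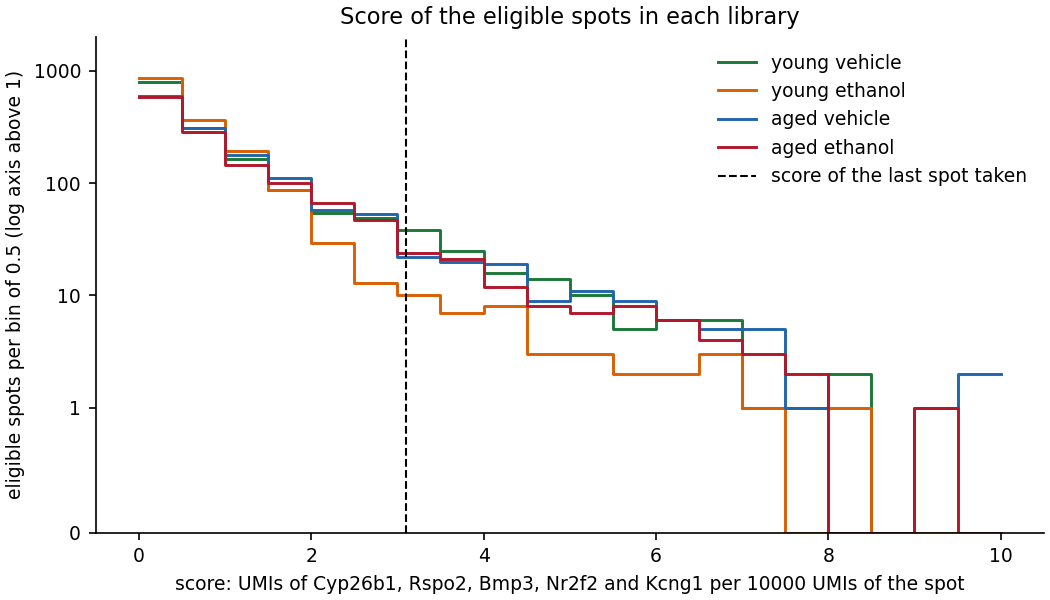
The number of eligible spots is plotted against the score (UMIs of the 5 rule genes per 10000 UMIs) with the threshold marked. The chosen spots form the upper tail of 1 continuous distribution, from 3.10 upward.

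What the rule used is given as description only. Nr2f2 supplied 38.7% of the score UMIs, Cyp26b1 23.2%, Kcng1 22.9%, Bmp3 9.37% and Rspo2 5.86%. Nr2f2 was the leading gene in 165 spots, Cyp26b1 in 97, Kcng1 in 56, and Bmp3 and Rspo2 in 16 each. A UMI of all 5 genes was found in 69 spots, of 4 genes in 123, of 3 in 100, of 2 in 46 and of 1 in 12. Over the 350 spots, the genes' shares were not alike from spot to spot: Pearson's r of Nr2f2 with the other 4 lay between -0.21 and -0.30, and Bmp3 with Rspo2 had the highest value at 0.17. These values share the score that chose the spots and the spots' depth.

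Cyp26b1 stood at 98.4, 117, 107 and 123 CPM in the chosen spots against 8.0, 3.6, 8.1 and 7.3 in the other eligible spots. Nr2f2 stood at 184, 186, 208 and 142 CPM against 25.1, 23.6, 29.9 and 29.2. Kcng1 was at 121, 55.4, 112 and 98.5 CPM against 16.9, 12.0, 19.3 and 20.6, and was lowest in the young ethanol library. Rspo2 (14.7, 40.3, 22.4 and 48.3 CPM) and Bmp3 (35.6, 55.4, 32.1 and 66.3 CPM) were both higher in the ethanol than in the vehicle libraries, with no overlap between them. Cyp26b1 separated in the same direction, Kcng1 was lower in both ethanol libraries, and Nr2f2 overlapped. With so few libraries on a side, a separation often arises by chance. These genes chose the spots, so their levels depend on the rule and on which gene led. Slc17a7 stood at 1035, 834, 1106 and 994 CPM, close to the 948, 851, 1018 and 874 CPM of the other eligible spots, which passed the same minimum. The leading gene also varied by library: Nr2f2 led in 64 of 114, 18 of 39, 58 of 107 and 25 of 90 spots, and Cyp26b1 in 22, 10, 29 and 36.

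Piriform cortex and basolateral amygdala genes that the rule had not used were compared first, and no list for cortical amygdala was made. Each library gave 1 sum over its chosen spots and 1 over its other 5525 eligible spots (1456, 1538, 1300 and 1231), and edgeR's quasi-likelihood test with library as a block compared the sums over the 4 libraries. A gene was called at a Benjamini-Hochberg adjusted p under 0.05 over all genes tested and a fold of at least 2. Over all 14577 genes tested, 155 were called higher (1.06%) and 253 lower (1.74%), with a median log2 fold change of -0.01. An alternative asked for the fold in each library, with at least 20 UMIs over both sets in each and no p-value. It gave 40 higher and 46 lower, of which 39 and 46 were among the called genes. Without Nr2f2 in the score 92 of the 155 and 156 of the 253 were still called, and without the young vehicle library 103 and 142. The other genes of a spot were not part of the rule, but the spots were chosen with these data, so a call describes the chosen spots.

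Of 10 piriform cortex genes outside the rule, 1 was higher and none lower, with a median log2 fold change of 0.01. The called gene was Lmo3, a LIM-only transcriptional cofactor. Reln, an extracellular glycoprotein gene of the outer olfactory cortex, was at 15.9, 13.8, 23.2 and 18.9 CPM against 31.8, 32.2, 34.8 and 32.9, below the comparison in every library but short of the 2-fold minimum. Ntng1, Nrp2, Tbr1, Bcl11b, Calb2, Cux1, Fezf2 and Lhx2 were not called either. Of 10 basolateral amygdala genes, Lypd1 and Lmo3 were higher and none lower, with a median of 0.58, and the summed level of the list was 1757, 963, 1663 and 1069 CPM against 648, 530, 684 and 607 in the other eligible spots. Both lists share Lmo3 and Fezf2.

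Of the 7 measured genes on the list for hypothalamus and medial amygdala, 6 were higher and none lower, with a median of 1.35. Hap1, the huntingtin-associated protein, stood at 212, 180, 251 and 176 CPM against 85.9, 58.9, 98.6 and 77.9 (log2 fold change 1.35, SE 0.07, adjusted p = 4.21e-15 in edgeR's quasi-likelihood test). Ecel1, an endopeptidase-like enzyme, stood at 14.7, 16.4, 18.6 and 18.0 CPM against 6.98, 4.60, 7.59 and 5.72. For both genes all 4 chosen sums lay above all 4 comparison sums. Baiap3, Dlk1, Gabrq and Arhgap36 were the other called genes, and Arhgap36 had no UMI in the young ethanol spots. The last 3 were sparse in the chosen spots, with 18, 5, 12 and 36 UMIs of Dlk1, 9, 3, 12 and 3 of Gabrq and 10, 0, 22 and 16 of Arhgap36. For Baiap3, 50.6% of the aged vehicle UMIs were in 5 spots. Sim1, a transcription factor of hypothalamic and amygdalar neurons on the same list, was too sparse to test: it had 25 UMIs (31.5 CPM) in the chosen spots of the young ethanol library, 0.6 CPM in those of the young vehicle library and none in the aged libraries.

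Some lists for other regions held called genes in the lower direction. Of 7 dentate granule genes 5 were lower (Dsp, Tdo2, C1ql2, Plekha2 and Prox1), of 7 CA3 genes 3 were lower, and of 7 thalamus genes 4 were lower. None of 7 claustrum and endopiriform genes was called in either direction. Oligodendrocyte markers had a median of -0.79 with none of 8 called, and the list's summed level was 1948, 2730, 2036 and 2722 CPM against 3928, 3979, 3250 and 3676. The part of the markers of other regions and cells in the calls was not tested.

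**Figure D2:**
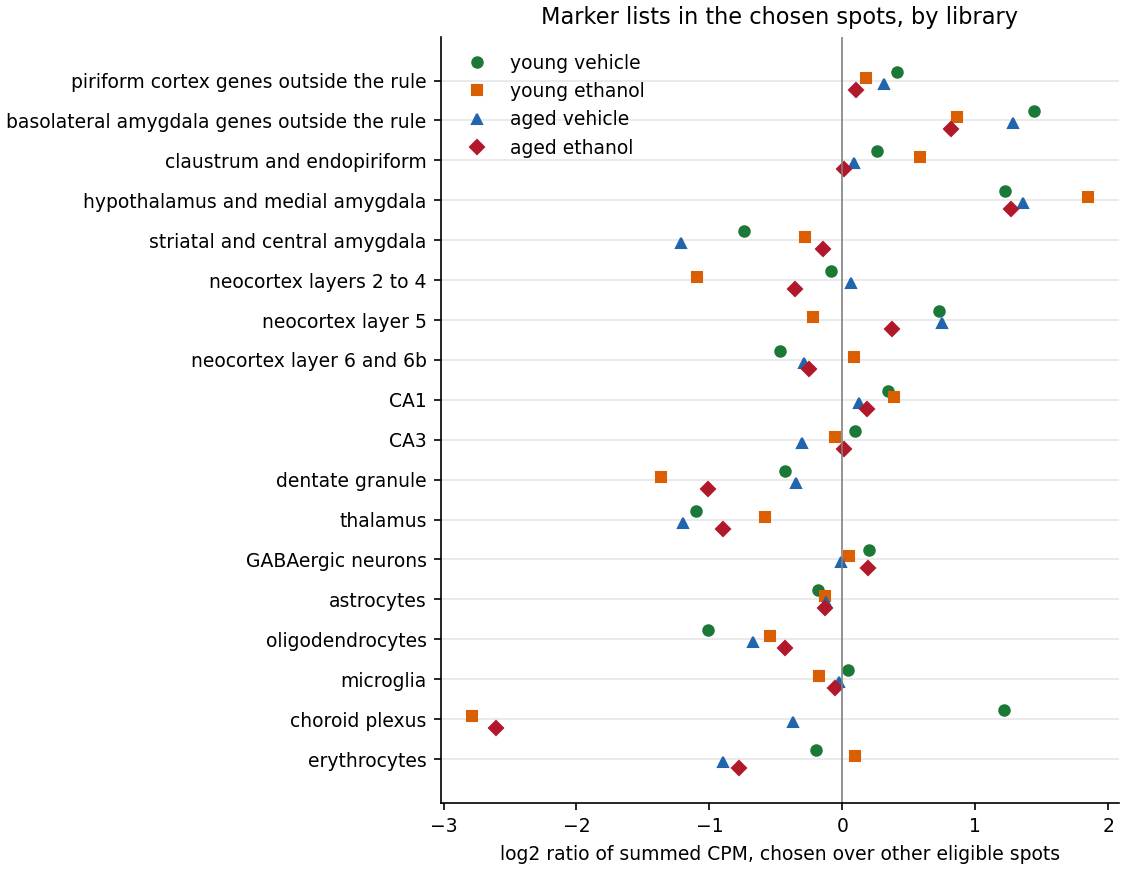
For each marker list, the log2 ratio of its summed CPM in the chosen spots over the other eligible spots is plotted for the 4 libraries, 1 symbol per library. The hypothalamus and medial amygdala list and the basolateral amygdala list lie farther to the right of 0 than the piriform list in all 4 libraries, and the choroid plexus list differs between vehicle and ethanol libraries.

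The spots were not uniform, and the leading gene's subsets drew on the libraries unevenly, so levels are given within libraries. In the vehicle libraries, Prkcd, a protein kinase C gene of thalamic relay neurons, was at 10.3 CPM in young and 11.3 in aged mice in spots led by Nr2f2, and at 11.2 and 7.45 in spots led by Cyp26b1. In the ethanol libraries it was at 296 and 503 CPM in the 18 and 25 spots led by Nr2f2, against 59.1 and 31.4 in the 10 and 36 led by Cyp26b1. Myl4, a myosin light chain gene, was at 172, 177, 151 and 129 CPM in the Cyp26b1-led spots and at 54.3, 27.1, 65.4 and 50.8 in the Nr2f2-led spots, higher in the former in all 4 libraries. Npy, the neuropeptide Y gene, was also higher in the Cyp26b1-led spots in each library, at 287, 279, 462 and 436 CPM against 167, 88.8, 298 and 205. Rxrg was at 36.9, 43.0, 53.7 and 47.2 CPM against 32.6, 19.7, 32.7 and 42.0.

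The Prkcd counts came from few spots. In 17 of the 350 spots (0, 7, 3 and 7 by library) the thalamus list reached at least 3 UMIs per 10000, and Nr2f2 led in 16 of them. In the 3 libraries that had them (young ethanol, then aged vehicle and aged ethanol), those spots held Prkcd at 913, 135 and 2209 CPM against 25.6, 6.35 and 32.2 in the remaining spots. Slc17a6, the vesicular transporter of thalamic and hypothalamic excitatory neurons, was at 255, 299 and 293 CPM in them against 64.6, 32.9 and 32.2. Slc17a6 is on the thalamus list that picked these spots, so its level there is description only. No UMI of Rspo2 or Bmp3 was in the 17 spots. A further 52 spots (41, 0, 11 and 0), all from the vehicle libraries, held at least 20 UMIs per 10000 of Ttr, the transthyretin gene of the choroid plexus. Within those libraries they had 852 CPM of Lypd1 against 668 in the remaining young spots, and 1098 against 656 in the aged. Results were computed again without each of these subsets, a choice made after the data were seen. Without the thalamus-rich spots, 182 genes were higher and 333 lower than in the other eligible spots, and without the Ttr-rich spots 150 and 237.

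Rxrg was higher in the chosen spots in every library. It stood at 34.1, 28.9, 42.1 and 41.9 CPM in the chosen spots against 5.55, 5.21, 7.17 and 7.14 in the other eligible spots. All chosen sums lay above all comparison sums, a 5.95-fold difference (log2 2.57, SE 0.13, adjusted p = 2.03e-15 in edgeR's quasi-likelihood test). A UMI of Rxrg was seen in 72 of 114, 20 of 39, 55 of 107 and 55 of 90 chosen spots. Its level also fell with the score rank, from 37.9 CPM over ranks 1 to 350 to 22.2 over ranks 351 to 700, 12.7 over ranks 701 to 1400 and 3.82 in the rest.

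Rxrg was the only called gene of 11 measured retinoic acid receptors and cofactors, whose median was 0.10. Rarb, a retinoic acid receptor, was at 6.88, 6.29, 4.25 and 6.91 CPM against 3.78, 4.95, 3.69 and 3.84 and did not pass (adjusted p = 0.0656 in edgeR's quasi-likelihood test). Of 15 measured retinoid enzymes and binding proteins, 2 were higher and 1 lower, with a median of 0.03. Cyp26a1, the paralog of Cyp26b1, stood at 2.69, 2.52, 2.71 and 1.84 CPM against 0.465, 0.105, 0.557 and 0.340, from 9, 2, 7 and 4 UMIs in the chosen spots. Crabp1, a cytosolic retinoic acid binding protein, stood at 15.3, 1.26, 8.50 and 3.68 CPM against 2.18, 1.82, 2.30 and 2.31. Crabp1 was lower than in the other spots in the young ethanol library, and its call was lost without the young vehicle library or when Cyp26b1 was left out of the score. Stra6, a retinol transporter, was lower at 0.897, 0, 3.48 and 2.30 CPM against 3.95, 4.31, 4.46 and 3.61, a call that DESeq2 did not make and that 9 other settings also lost. The synthetic enzymes Rdh10 (7.48, 7.55, 8.50 and 6.91 CPM against 7.01, 6.87, 7.90 and 6.26) and Aldh1a2 (0.299, 0, 2.71 and 1.38 against 2.50, 2.55, 3.41 and 2.99) did not pass.

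Of 30 measured Wnt pathway genes none was higher and 4 were lower, with a median of -0.10. Wnt10a was at 1.79, 1.26, 2.71 and 5.52 CPM against 16.5, 15.05, 12.5 and 12.7. Rspo1, the paralog of Rspo2, was at 1.50, 3.78, 4.25 and 1.38 CPM against 10.7, 12.3, 7.87 and 10.1, and the ligand Wnt2 and the nuclear effector Lef1 were also lower. Lef1, which the thalamus list also holds, lost its call with at least 10 Slc17a7 UMIs and without Cyp26b1 or Kcng1 in the score. Of 30 measured BMP pathway genes 1 was higher and 3 were lower, with a median of -0.06. Bmp2, a ligand that BMP antagonists bind, stood at 7.18, 11.3, 5.80 and 5.52 CPM against 2.65, 1.95, 1.95 and 2.11 (3.13-fold, adjusted p = 5.76e-05 in edgeR's quasi-likelihood test), with no overlap. The BMP antagonist Grem1, the activin subunit Inhba and the ligand Bmp6 were lower, but Bmp6 lost its call in 12 settings, among them DESeq2, 500 spots and leaving out any library but young ethanol. Grem1 lost it with DESeq2, with an equal share per library, without the young vehicle or the aged vehicle library, without Cyp26b1 or Kcng1 in the score and when 2-fold was asked of each library.

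Of the 10 measured Kv2 and silent Kv subunits other than Kcng1, none was higher and 2 were lower, with a median of -0.39. Kcng4, a silent subunit, was at 0.897, 0, 0.773 and 3.22 CPM against 3.26, 6.13, 2.99 and 5.21, and Kcns3 at 1.79, 0, 5.02 and 2.30 against 7.62, 5.63, 7.76 and 5.38. Both calls were lost without the young vehicle library. None of 33 other potassium channel genes was called.

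**Figure D3:**
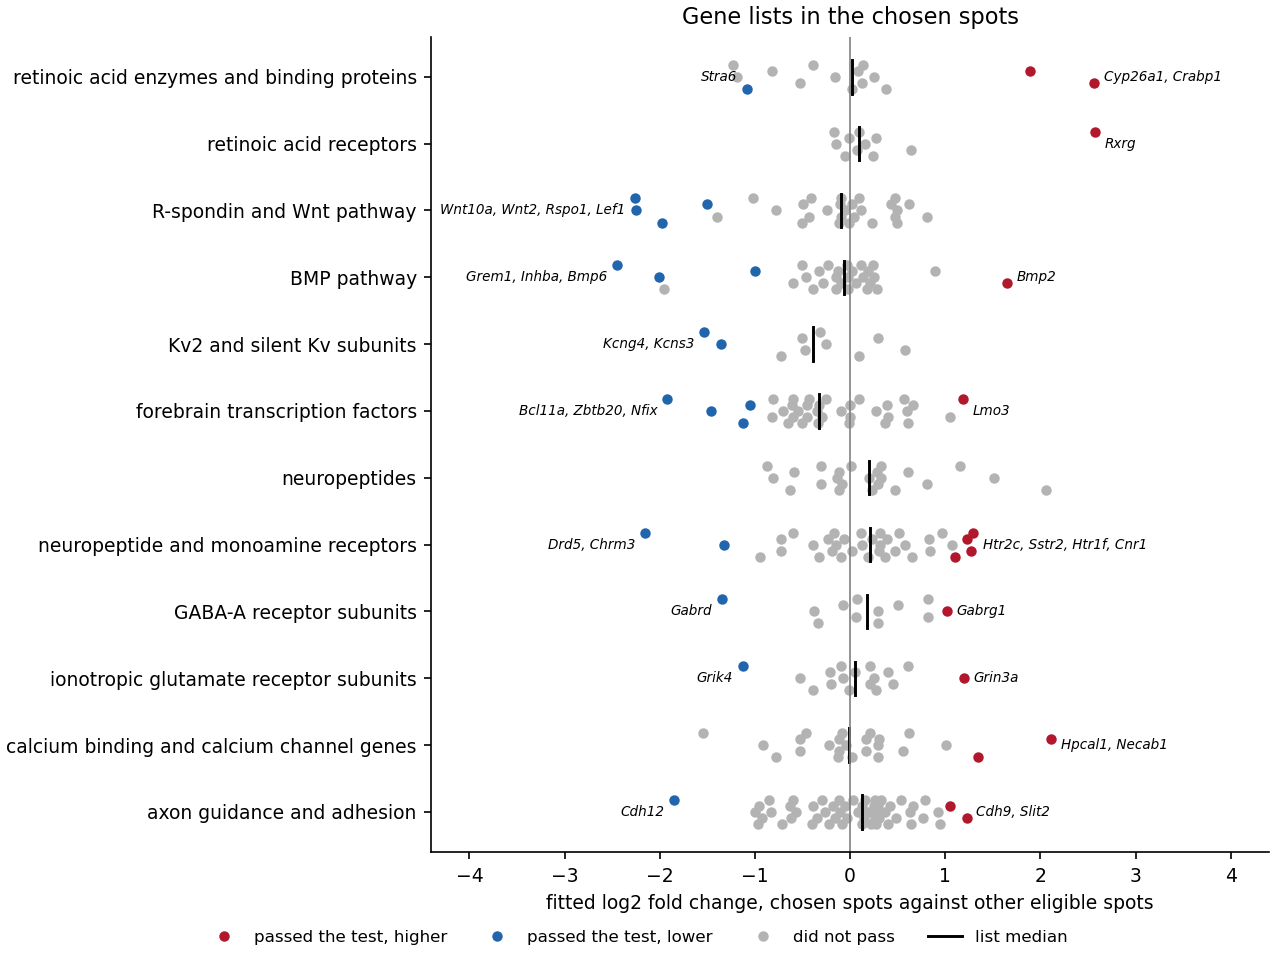
Each point is a gene, placed at its fitted log2 fold change between the chosen and the other eligible spots, by gene list, with genes that passed the test in colour and a bar at the list's median. Single genes such as Rxrg, Bmp2 and Hpcal1 lie far to the right within lists whose medians are close to 0.

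Among the genes ranked highest by the library ratio closest to 0, several had known neuronal roles. C1ql3, a secreted synaptic organiser, stood at 87.9, 75.5, 79.6 and 96.7 CPM against 19.5, 14.0, 17.6 and 23.1 (4.58-fold, adjusted p = 2.48e-17 in edgeR's quasi-likelihood test). Hpcal1, a neuronal calcium sensor of the hippocalcin family, stood at 363, 259, 382 and 239 CPM against 85.4, 47.7, 90.5 and 65.3 (4.32-fold, adjusted p = 1.56e-16 in edgeR's quasi-likelihood test). Neither gene's chosen and comparison sums overlapped. Lypd1, which encodes a membrane-anchored modulator of nicotinic receptors, stood at 732, 326, 701 and 269 CPM against 125, 48.8, 125 and 69.3. Lypd1 was lower in the ethanol than in the vehicle libraries in both sets of spots.

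Glipr1 stood at 13.5, 18.9, 10.8 and 14.7 CPM against 1.13, 1.16, 1.50 and 1.46, a 10.6-fold difference. The homeobox gene Nkx2-1, a regulator of ventral forebrain and hypothalamic development, stood at 5.38, 5.03, 3.09 and 1.38 CPM against 0.349, 0.289, 0.348 and 0.272. Its levels rested on 18, 4, 8 and 3 UMIs, found in 13, 3, 7 and 3 of the chosen spots. Cyp26a1, Ccdc42, Gm16152, Gm44691, Gm44812 and Gm15825 completed the 12 highest, each at 5.03 CPM or below in the chosen spots. DESeq2 did not call Gm16152 or Gm44691.

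The 8 lowest genes included Trbc2 and Fibcd1. Trbc2, annotated as a T cell receptor constant segment, was at 0.598, 1.26, 0.386 and 2.30 CPM against 31.6, 25.5, 26.1 and 21.1. Fibcd1, a CA1 marker, was at 2.39, 0, 1.16 and 3.22 CPM against 20.8, 16.6, 22.3 and 24.6. The summed CA1 list, which holds Fibcd1, was instead higher than in the other eligible spots in each library. Lct, Lefty1, Robo3, Igfn1, Syt2 and Wnt2 made up the rest of the 8 lowest, with log2 fold changes of -4.57, -3.04, -3.15, -2.83, -2.34 and -2.25. When an equal share of eligible spots was taken from each library, Trbc2 moved from -4.71 to -2.71 and no longer passed.

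**Figure D4:**
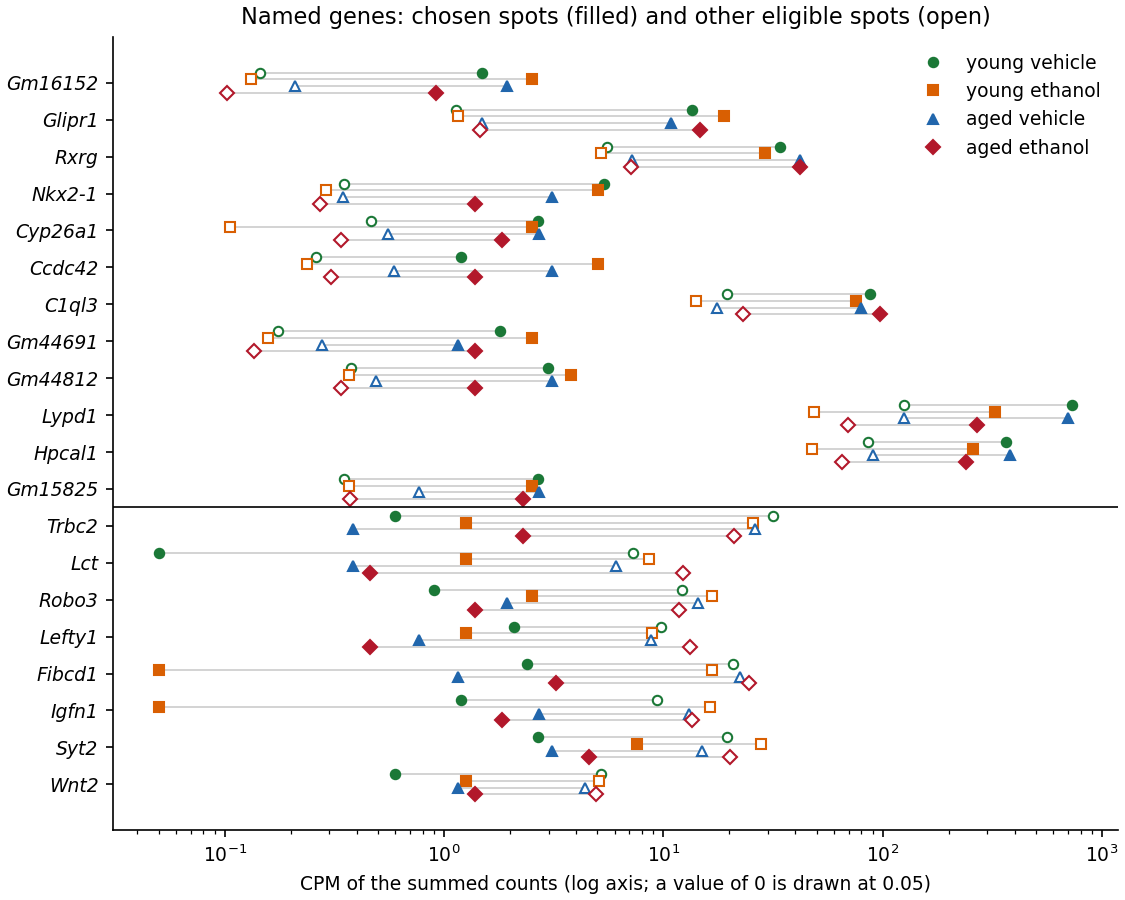
CPM on a log axis is plotted for named genes in the chosen spots and the other eligible spots, 1 point per library, with a value of 0 drawn at 0.05. Rxrg, C1ql3 and Hpcal1 lie above the comparison in all 4 libraries, and the 2 sets do not overlap for these genes.

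Forebrain transcription factors were mostly uncalled, with 1 of 36 measured genes higher and 4 lower and a median of -0.33. Lmo3 stood at 279, 263, 262 and 211 CPM against 103, 95.7, 130 and 120, and fell short of the 2-fold minimum when Nr2f2 was left out of the score (log2 fold change 0.92). Bcl11a, Zbtb20 and Nfix were among the lower genes.

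Receptor genes moved in both directions. Of 36 neuropeptide and monoamine receptors 4 were higher and 2 lower, with a median of 0.21. Htr2c, the serotonin 2C receptor, stood at 79.9, 55.4, 84.6 and 63.1 CPM against 26.5, 31.1, 32.6 and 30.9, and Sstr2, a somatostatin receptor, at 41.6, 35.2, 36.3 and 53.9 against 15.3, 16.7, 17.4 and 21.5. Htr1f and Cnr1, the cannabinoid CB1 receptor, were higher as well. Drd5, a dopamine receptor, and Chrm3, a muscarinic receptor, were lower.

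Of 12 GABA-A receptor subunits, Gabrg1 was higher (32.3, 34.0, 31.7 and 34.1 CPM against 16.3, 13.8, 16.2 and 17.8) and Gabrd, the extrasynaptic delta subunit, lower (19.4, 28.9, 31.7 and 40.1 against 68.8, 96.1, 69.3 and 80.2), with a median of 0.18. Gabrg1 had a fold of 2.03 and fell below the 2-fold minimum without the young ethanol library and under 7 other settings, among them 250 and 500 spots. Of 17 ionotropic glutamate receptor subunits Grin3a was higher (37.7, 69.2, 40.2 and 41.0 CPM against 19.5, 19.6, 19.4 and 18.2) and Grik4, a CA3 kainate receptor subunit, lower, with a median of 0.05. Grin3a lost its call without Nr2f2 in the score, and Grik4 lost it with 500 spots, with an equal share per library, without the young vehicle library and without Cyp26b1, Nr2f2 or Kcng1 in the score.

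Of 24 calcium binding and calcium channel genes, Hpcal1 and Necab1 were higher and none lower. Of 55 axon guidance and adhesion genes, Cdh9 and Slit2 were higher and Cdh12 lower, and Cdh9 lost its call without the aged ethanol library, the Ttr-rich spots or the thalamus-rich spots. Slit2 fell below the 2-fold minimum without the young ethanol or the aged ethanol library, with 500 spots, with at least 10 Slc17a7 UMIs and without Cyp26b1 or Kcng1 in the score. Of 20 presynaptic genes Syn2 (synapsin II) was higher and Syt2 and Cplx2 were lower, and the folds of Syn2 and Cplx2 were under 2 with 500 spots and without Cyp26b1 or Kcng1 in the score. Arc, an activity-induced gene of the postsynapse, was the only called gene of 16 immediate early genes, at 43.7, 21.4, 24.3 and 49.7 CPM against 107, 49.95, 64.2 and 96.7. None of 23 neuropeptide genes was called. Grp, which encodes gastrin-releasing peptide, had a log2 fold change of 2.06 but an adjusted p of 0.098 in edgeR's quasi-likelihood test, with 149, 3.78, 125 and 46.5 CPM against 25.1, 16.1, 24.6 and 14.3. None of the 16 heat shock, 11 activated microglia, 10 interferon response, 7 ethanol metabolism, 13 mitochondrially encoded or 20 nuclear oxidative phosphorylation genes was called.

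The spots were then set against 3 sets picked by marker genes in the same way: 348 upper neocortex spots (Cux2, Rasgrf2, Otof, Stard8 and Lamp5), 348 layer 6 spots (Rprm, Syt6, Foxp2, Hs3st4 and Osr1) and 332 CA1 spots (Fibcd1, Spink8, Gm2115, Ccn3 and Wfs1). The genes that chose either set were left out of each test. The chosen sums are the same in all comparisons, so the comparisons are not independent of one another.

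Against upper neocortex spots, 11214 genes were tested, 319 were higher (2.84%) and 280 lower (2.5%), and the piriform list did separate: 6 of 10 were higher (Lmo3, Bcl11b, Ntng1, Calb2, Fezf2 and Nrp2) and 2 lower (Cux1 and Lhx2), with a median of 1.37. Lmo3 stood at 279, 263, 262 and 211 CPM against 32.4, 32.5, 37.8 and 31.7. Rxrg stood at 34.1, 28.9, 42.1 and 41.9 CPM against 1.80, 2.62, 2.10 and 0. Baiap3, Hpcal1, Glipr1 and Sostdc1, a Wnt and BMP antagonist, were among the 6 highest, and Gm765, Robo3, A830009L08Rik, Igfn1, 9130024F11Rik and Cd34 were the 6 lowest. Of 16 immediate early genes 1 was higher (Jun) and 7 lower, with a median of -0.58, among them Egr1 at 109, 115, 140 and 197 CPM against 290, 390, 375 and 416. Of 51 axon guidance and adhesion genes 13 were higher and 5 lower, with a median of 0.18.

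Against layer 6 spots, 11127 genes were tested, 171 were higher (1.54%) and 185 lower (1.66%). The piriform list gave 1 gene higher (Ntng1) and 1 lower (Tbr1). C1ql3 stood at 87.9, 75.5, 79.6 and 96.7 CPM against 10.3, 8.21, 11.3 and 12.8, and Scn7a, an atypical sodium channel gene, at 12.0, 11.3, 11.2 and 10.6 against 1.19, 1.09, 2.18 and 1.07. Glipr1, Rxrg, Krt1 and Man1a were the other genes of the 6 highest. Trbc2 was lower, at 0.598, 1.26, 0.386 and 2.30 CPM against 112, 89.2, 117 and 75.4 in layer 6 spots, and Gm40518, Igfn1, Col5a1 and Gadd45a were also among the 6 lowest. Of 10 myelin genes 4 were lower, among them Mag, Mog and Cldn11, with a median of -0.98.

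Against CA1 spots, 11161 genes were tested, 305 were higher (2.73%) and 281 lower (2.52%). The basolateral amygdala list gave 5 of 10 higher (Grp, Lypd1, Tshz1, Etv1 and Negr1) and 1 lower (Neurod6), and the piriform list 2 of 10 higher (Calb2 and Ntng1). The Grp call was lost when any library other than young ethanol was left out. Myl4 stood at 88.2, 69.2, 92.0 and 86.6 CPM against 11.5, 10.1, 10.4 and 15.5, and Dkkl1 at 43.1, 34.0, 42.9 and 51.6 against 5.01, 7.06, 5.22 and 9.14. Rxrg, Scn7a, Sstr2 and Rmst were the other genes of the 6 highest. Lefty1, a Nodal antagonist, was at 2.09, 1.26, 0.773 and 0.460 CPM against 80.2, 103, 60.6 and 109, and Lct, Drd5, Wnt2, Stac and Efcab6 were also among the 6 lowest.

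Genes called higher in all 4 comparisons included Rxrg, Glipr1, Bmp2, Hpcal1, C1ql3, Lypd1, Hap1, Baiap3, Htr2c, Grin3a and Gabrg1, and genes called lower in all 4 included Chrm3 and Arc. The fold for Rxrg was 5.95 against other eligible spots, 18.3 against upper neocortex, 7.26 against layer 6 and 9.75 against CA1. The fold for Hpcal1 was 4.32, 8.30, 3.45 and 4.73 in the same order. Gabrg1 and Htr2c had folds as low as 2.03 and 2.05 in 1 of these.

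Libraries were compared within the chosen spots by the ratio of CPM, with an exact conditional binomial 95% interval that covers counting error only. With 1 library per group there is no test and no p-value. A gene met the rule of size when it differed 2-fold or more and the richer library had 50 UMIs of it or more. Fewer cells of a type in the spots and less RNA per cell cannot be told apart in such sums. Gavage, section plane and the mix of spots chosen from each library cannot be told apart either.

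In young mice, 7936 genes were measured, 68 were at least 2-fold higher with ethanol (0.857%) and 239 lower (3.01%), with a median log2 ratio of -0.08. The chosen spots held 794605 UMIs with ethanol and 3343207 with vehicle. The 50 UMI minimum was thus easier to reach for genes lower with ethanol than for genes higher. When an equal share of eligible spots was taken from each library, which gave the young ethanol library 94 spots, 124 were higher and 98 lower. The same genes gave 5 higher and 13 lower in the other eligible spots, whose sums held far more UMIs. The genes with the largest rises on the counting interval were Prkcd, a protein kinase C isoform, Cbln2, a synaptic organiser of the cerebellin family, Pou3f1, a POU transcription factor, C1ql1 and Pcp4, a calmodulin regulator. Prkcd stood at 170 CPM with ethanol and 9.87 with vehicle, a ratio of 17.2 (11.7 to 26.0), and 92.6% of its UMIs in the ethanol library were in 5 spots. Without the thalamus-rich spots it stood at 25.6 CPM and 9.87. Cbln2 was 13.7-fold higher (8.82 to 22.0) at 111 against 8.08 CPM, and Pou3f1 9.06-fold (5.60 to 15.03) at 70.5 against 7.78. For both of these and for C1ql1 (101 against 19.4 CPM), 5 of the 39 spots held 65.9%, 64.3% and 73.8% of the UMIs. Without the thalamus-rich spots Cbln2, Pou3f1 and C1ql1 kept ratios of 14.1, 9.66 and 5.88.

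Genes lower in the young ethanol spots included Ttr, Grp and Doc2b, a calcium sensor of vesicle release. Ttr stood at 18.9 CPM against 1962, a fold of 104 (63.0 to 186), and the other eligible spots also had less (133 against 841 CPM). Grp was seen in 3 of 39 spots with ethanol and 93 of 114 with vehicle, at 3.78 against 149 CPM, while the other eligible spots had 16.1 against 25.1. Doc2b stood at 3.78 against 56.5 CPM, with 12.3 against 13.6 in the other spots. Ptprc, the leukocyte gene CD45, had 0 UMIs against 65, which makes it at least 5.15-fold lower when 3 UMIs are used as the floor. Ptprc was called higher in the chosen than in the other eligible spots (19.4, 0, 12.4 and 12.4 CPM against 1.57, 1.95, 1.43 and 2.11), a gene singled out after its values were seen.

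Of 10 basolateral amygdala genes, 1 met the rule upward (Meis2) and 5 downward (Grp, Fezf2, Etv1, Lypd1 and Negr1) in young mice, with a median of -0.81. Of 10 piriform genes Tbr1 was higher and Fezf2 lower, with a median of -0.16. Tbr1, a transcription factor of deep cortical layers, stood at 108 CPM against 45.5, with 99.0 against 99.3 in the other spots. Etv1 stood at 78.0 against 186 CPM and Calb1, encoding calbindin, at 74.3 against 181. Of 13 immediate early genes 4 were lower (Npas4, Egr4, Jun and Arc) and none higher, with a median of -0.59. Of 6 retinoid enzymes and binding proteins 4 were lower (Ttr, Crabp1, Rdh14 and Rbp4) and of 8 receptors Rxra was lower, at 7.55 against 17.3 CPM. Its interval, 0.994 to 6.52 as a fold lower, included 1.

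In aged mice, 7141 genes were measured, 38 were higher with ethanol (0.532%) and 52 lower (0.728%), with a median log2 ratio of -0.07 and 8 and 2 in the other eligible spots. Prkcd was 16.1-fold higher (10.7 to 25.2) at 155 against 9.66 CPM, and without the thalamus-rich spots at 32.2 against 6.35. Tnnt1 and Zic1 were 9.26-fold and 6.23-fold higher, and without those spots stood at 6.83 against 2.78 CPM and 5.86 against 5.16. Pdyn, the prodynorphin gene, stood at 52.5 against 13.1 CPM, with UMIs in 51 of 90 spots against 26 of 107. Nts, the neurotensin gene, stood at 47.4 against 13.1 CPM, with UMIs in 49 of 90 spots against 20 of 107, and 10.5 against 11.6 CPM in the other spots. Pdyn and Nts kept ratios of 4.79 and 3.73 without the thalamus-rich spots.

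Ttr was lower in the aged ethanol spots too, at 31.3 against 1049 CPM. Lypd1 stood at 269 against 701 CPM, 2.61-fold lower (2.37 to 2.87), and Grp at 46.5 against 125. Marcksl1, which encodes an actin-regulating protein, stood at 44.2 against 159 CPM, and Fabp7, a fatty acid binding protein of glial progenitors and astrocytes, at 27.2 against 81.2. Calb2, encoding calretinin, stood at 26.7 against 68.8 CPM. Arc was higher at 49.7 against 24.3 CPM. Complement C4b was 2.53-fold higher, at 23.5 against 9.28 CPM, and the other eligible spots had 27.3 against 11.6.

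Of the 7071 genes measured at both ages, 9 were higher with ethanol at both (Prkcd, Nefh, Plcb4, Pvalb, Vamp1, Pcp4l1, Syndig1, Prss23 and Cdh9), which were 14.8% of 61 in young and 37.5% of 24 in aged mice. Without the thalamus-rich spots Prkcd was still 2.59-fold higher in young (1.35 to 4.78) and 5.07-fold in aged mice (2.91 to 9.39). It no longer met the rule because its young sums, 33 UMIs with vehicle and 17 with ethanol, fell below the UMI minimum. Leaving out the thalamus-rich spots left 2 of those 9 within the rule, Prss23 and Cdh9. Neither was among the genes higher at both ages without the Ttr-rich spots, with 500 spots or with an equal share per library, and Cdh9 was also lost with 250 spots and with at least 10 Slc17a7 UMIs. In the spots that were not thalamus-rich Prss23, a serine protease gene, was 2.89-fold higher in young (2.00 to 4.14) and 2.22-fold in aged mice (1.61 to 3.08). Cdh9, a cadherin, was 2.60-fold (1.61 to 4.11) and 2.08-fold higher (1.42 to 3.07).

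At both ages, 21 genes were lower with ethanol, 12.5% of 168 in young and 44.7% of 47 in aged mice. They included Ttr, Grp, Lypd1, Doc2b, Stxbp6, which binds SNARE proteins, Vip, the vasoactive intestinal peptide gene, and Ptpn14. Without the thalamus-rich spots 17 were lower, among them these 7, and median-of-ratios scaling left 12, among them Ttr, Grp, Lypd1, Doc2b, Stxbp6 and Ptpn14. Ttr, Grp and Doc2b were lower at both ages in every setting. Lypd1 was lost with at least 10 Slc17a7 UMIs, and Stxbp6 with 500 spots and with an equal share per library. Ptpn14 was lost with 250 spots, with an equal share and without the Ttr-rich spots. Vip was lost with 250 and 500 spots, with median-of-ratios scaling and without the Ttr-rich spots. Without the Ttr-rich spots 6 genes were higher at both ages (Pcp4l1, Syndig1, Vamp1, Nefh, Prkcd and Pvalb) and 14 lower. Arc was the only one of the 7071 genes past the rule in opposite directions, and its young ratio was 0.516, inside the rule, without the thalamus-rich spots.

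**Figure D5:**
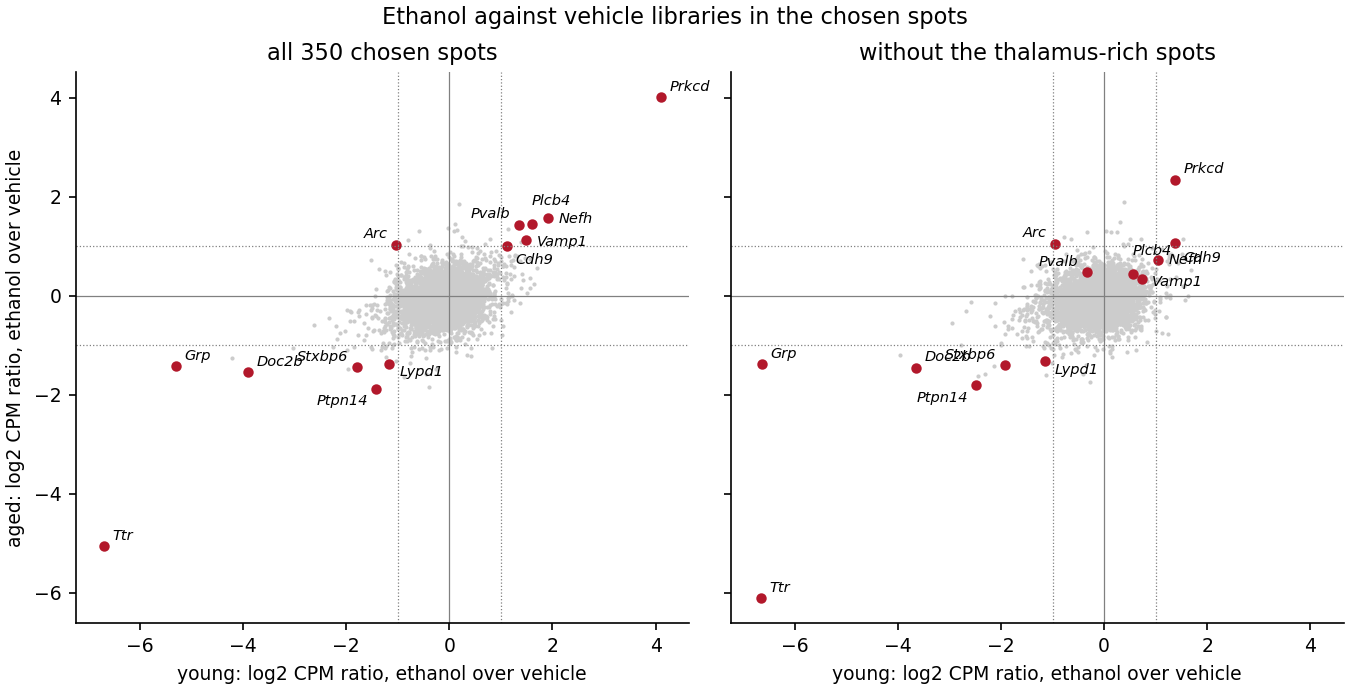
The log2 CPM ratio of ethanol over vehicle in aged mice is plotted against that in young mice for genes measured at both ages, in all 350 spots (left) and without the thalamus-rich spots (right), with named genes in colour and dotted lines at 2-fold. Ttr, Grp and Doc2b stay in the lower left corner in both panels, whereas Pvalb, Plcb4 and Vamp1 move inside the 2-fold lines on the right.

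Marker lists of other tissue moved with the gavage groups, in the chosen spots and for some lists in the other eligible spots too. The choroid plexus list summed to 1989, 20.1, 1062 and 33.2 CPM, the thalamus list to 67.3, 233, 83.1 and 151, the striatal and central amygdala list to 149, 396, 118 and 335, and the oligodendrocyte list to 1948, 2730, 2036 and 2722. The striatal and central amygdala list holds Prkcd, with 33, 135, 25 and 337 UMIs in the chosen spots. Without the thalamus-rich spots Prkcd had 33, 17, 16 and 66 UMIs. The basolateral amygdala list (1757, 963, 1663 and 1069 CPM) and the list for neocortex layers 2 to 4 (771, 371, 802 and 550 CPM) were lower in the ethanol libraries. None of these lists had a member at 0 in the chosen spots, and vehicle and ethanol libraries did not overlap in any of the 6. The 6 were singled out from 29 marker lists. Other lists also separated, among them piriform (658, 618, 685 and 597 CPM) and microglia (557, 632, 533 and 573 CPM). Some, such as the astrocyte list, overlapped. With so few libraries on a side, such a separation often arises by chance. In the other eligible spots the choroid plexus list (855, 139, 1371 and 201 CPM), the thalamus list (144, 349, 191 and 280) and the striatal list (248.96, 483, 273 and 371) also separated vehicle from ethanol libraries, in the same direction. Their part in the ratios was not tested.

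Between the vehicle libraries the chosen spots differed least by age. Of 7976 genes, 6 were higher in the aged library (0.0752%) and 12 lower (0.15%). Ptgds, a prostaglandin synthase of meninges and oligodendrocytes, stood at 595 against 243 CPM, with 51.4% of the aged UMIs in 5 spots. Eno1, a glycolytic enzyme gene (166 against 76.3 CPM), Baiap3 (32.9 against 14.96), Kcnk9, a potassium leak channel (45.2 against 22.4), and Tac2, which encodes neurokinin B (23.2 against 10.8), were higher. Bc1, a small noncoding RNA of dendrites, stood at 7877 against 16532 CPM, and the other eligible spots had 6447 against 11250. Slc7a5 (6.18 against 20.0 CPM) and Nts (13.1 against 27.5 CPM) were lower. No gene of the piriform or basolateral amygdala lists and none of the retinoid, Wnt or BMP lists met the rule.

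Between the ethanol libraries, 80 of 6272 genes were higher in aged mice (1.28%) and 24 lower (0.383%), and with an equal share per library 24 were higher and 56 lower. The UMI minimum was easier to reach for genes higher in the aged library, whose chosen spots held more UMIs. Of 12 immediate early genes 6 were higher (Npas4, Fos, Egr4, Arc, Nr4a1 and Junb) and none lower, with a median log2 ratio of 0.89. Fos stood at 36.4 against 11.3 CPM, from 79 and 9 UMIs, and the other eligible spots had 35.8 against 22.7. Sst, the somatostatin gene, stood at 785 against 301 CPM, with 408 against 462 in the other spots. Grp stood at 46.5 against 3.78 CPM and Pdyn at 52.5 against 13.8. Gm42418, which overlaps ribosomal RNA sequence, was 2.30-fold higher at 4871 against 2114 CPM, and the other eligible spots had 4154 against 1780. Cbln2, C1ql1 and Pou3f1 were lower, and so were all 4 measured haemoglobin genes, among them Hbb-bs at 378 against 1206 CPM.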

How the data were processed

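The authors deposited 1 Visium count matrix for all libraries, holding whole UMI counts for 32285 genes and 11064 spots, and a letter in each spot's barcode, which the labels repeat, names its library. It was made with spaceranger 1.3.1 per the file headers, and per the submitters' processing notes Space Ranger 2.0.0 and build mm10 were used. No spot positions or regional annotation were used here.

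The members, gene lists and marker lists were chosen with earlier results of these data known. UMIs were summed per library and spot set. Sums were compared in R 4.3.3 with edgeR 4.0.16 (TMM scaling, filterByExpr, robust quasi-likelihood fit, library as a block), leaving out Slc17a7 and every gene that chose either set. The test was checked on simulated counts. DESeq2 1.42.0 was an alternative. A call needed a Benjamini-Hochberg adjusted p under 0.05 and a fold of 2. Where the labels do not give separate animals, p-values measure the spread between these 4 libraries only, and the spots of 1 library are not replicates.

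Named genes were the 12 highest and 8 lowest called genes by the library log2 ratio closest to 0, 6 in each direction for the other sets, up to 4 called genes per list, and for libraries 5 in each direction by the interval bound nearest 1, up to 3 per list, and up to 10 that met the rule at both ages. The rule genes, Slc17a7, Slc17a6, Gad1, Gad2, Gfap, C4b, Mbp, Ttr and the piriform and basolateral amygdala genes were added. The 38 symbols shared by more than 1 identifier were not named. Other genes were named as list members or because a result turned on them, after their values were seen. UMI depth limits precision as given by the intervals, which cover counting error only. Doublets are not defined for spots. Some named genes are not reported here. The alternatives are in the closing section.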

Additional observations from a re-analysis of the deposited data

Results flagged for a closer look

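Of 216 sets of 4 library ratios examined for named genes, in the comparisons of the chosen spots with other spots, 12 (5.56%) had 1 library that stood apart from the other 3, by a gap, as a share of the range, above Dixon's 95% critical value for 4 values. Chance gives such a library in about 1 in 20 groups, close to the share found, so the list is a description only.

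Against the other eligible spots, the young ethanol library had the highest ratio for Cyp26a1 (4.58, the others 2.28 to 2.53), Ccdc42 (4.41), Bmp2 (2.54, the others 1.39 to 1.57) and Gabrg1 (1.299), and the lowest for Necab1 (0.91, the others 1.38 to 1.46). Cyp26a1 rested on 2 UMIs in the chosen spots of that library. The young vehicle library was lowest for Wnt2 (-3.12), the aged vehicle library for Lef1 (-3.14), and the aged ethanol library for Bcl11b (-0.048). Against upper neocortex spots, the aged ethanol library, which held 34 of those spots, was highest for Nxph3 (2.24). Against layer 6 spots, the aged vehicle library was lowest for Scn7a (2.36, the others 3.31 to 3.37). Against CA1 spots, the young ethanol library was lowest for Grp (-1.56, the others 2.50 to 3.05) and the aged vehicle library highest for Homer2 (-1.03).

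Arc had a log2 ratio of ethanol to vehicle of -1.03 in young and 1.03 in aged mice. The young ratio without the thalamus-rich spots was 0.516 on the linear scale, inside the 2-fold rule, and the aged log2 ratio was under 1 with 500 spots, with an equal share per library and without the Ttr-rich spots. The difference between the ages was not tested, because each group was 1 library.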

How the results depend on the processing

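Of the 155 higher and 253 lower genes against the other eligible spots, DESeq2 called 122 and 165, and an equal share per library 131 and 144. Over all counts and shares, 181 values stayed within 1.5 times the reported value or on the same side of the threshold, 11 were larger and 22 smaller. Of values for single genes, 4547 kept direction and side of the threshold, 10 gained a call, 402 lost one and 4 reversed.

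Asking for 2-fold and 20 UMIs in each library, without a p-value, gave 40 higher and 46 lower against the other eligible spots. It gave 87 and 100 against upper neocortex, 29 and 63 against layer 6, and 77 and 114 against CA1. Without a filter on low counts 274 genes were higher than in layer 6. An equal share per library gave 159 lower than in the other eligible spots, 124 higher and 98 lower for ethanol in young mice, 3 higher between the vehicle libraries, and 24 higher and 56 lower between the ethanol libraries. A minimum of 20 UMIs gave 177 higher and 547 lower for ethanol in young mice, 142 and 168 in aged mice, 51 and 80 by age with vehicle, and 321 and 77 by age with ethanol. With 250 spots, 43 were higher with ethanol in young and 21 in aged mice, 3 were higher and 6 lower by age with vehicle, and 15 were lower by age with ethanol. With 500 spots, and with median-of-ratios scaling, 34 were lower with ethanol in aged mice. Without the Ttr-rich spots 42 genes were higher with ethanol in young mice. Without the thalamus-rich spots 44 were higher in young and 22 in aged mice.

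Leaving out each library in turn gave 120 to 166 higher and 171 to 311 lower against the other eligible spots, 294 to 353 and 235 to 332 against upper neocortex, 146 to 188 and 147 to 207 against layer 6, and 298 to 331 and 275 to 294 against CA1. Pvalb reversed for ethanol in young mice with at least 10 Slc17a7 UMIs (-0.052) and without the thalamus-rich spots (-0.34), and Nr4a2 (-0.073) and Ntng1 (-0.36) reversed between the ethanol libraries with an equal share per library. Apart from changes that follow from fewer spots or lower minimums, the cause was not tested.

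No paired analysis was possible because each group had 1 library. The library was already the block in the comparisons of spots. The alternative sets shared 296 of the 350 spots with an equal share per library, 314 with at least 10 Slc17a7 UMIs and 248 without Nr2f2 in the score. Depth limits the young ethanol library most, where 3 UMIs stood for 3.78 CPM.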

Other observations

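Hap1 was higher in Nr2f2-led than in Cyp26b1-led spots in each library, at 230, 232, 323 and 214 CPM against 184, 140, 157 and 149. Sst, the somatostatin gene, ran the other way in each library, at 1013, 207, 1074 and 627 CPM in Nr2f2-led spots against 1245, 252, 1450 and 1023 in Cyp26b1-led spots. Sema3e, a repulsive guidance ligand, was at 8.14, 9.87, 6.00 and 19.3 CPM against 14.4, 64.5, 8.94 and 29.2. Lypd1 had no common order, at 781, 481, 781 and 194 CPM against 842, 215, 605 and 347. These genes were chosen after their values were seen, the subsets were defined by the rule genes, and no test was made. The spots led by Rspo2 (2, 2, 3 and 9) and Bmp3 (5, 3, 2 and 6) were too few within a library to describe.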
